A study of Mus musculus with 16 samples.

Results

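The cytosines of 18S and 5.8S ribosomal RNA (rRNA) were examined in RNA bisulfite sequencing of mouse embryonic stem cells. They were chosen by the name of their reference RNA, without regard to any measured value. They number 535 of the 2484 cytosines that the rRNA-containing libraries list, 492 on 18S and 43 on 5.8S, and each was listed in every one of these libraries. Of the 16 libraries of the series, the 4 that kept rRNA were used, namely 2 of wild type cells and 2 of Dnmt2-/- cells, both of the J1 background. Each held the RNA above 200 nt without the rRNA depletion that the other long libraries received. Cells of both genotypes were cultured on mouse embryonic fibroblasts, which were taken off before harvest by letting them settle on dishes. Separate cultures are not named in the labels, nor is it said whether the knockout is 1 clone, so the spread between libraries may be technical. Both genotypes went through the same bisulfite treatment. The Dnmt2 transcript was not examined in these libraries, so the genotype rests on the labels.

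18S rRNA is the RNA of the small ribosomal subunit, and 5.8S rRNA is a short RNA of the large subunit that pairs with the start of 28S rRNA. Both are cut from 1 precursor transcript. In mammals the established 5-methylcytosines of cytosolic rRNA lie in 28S, where Nsun5 and Nop2 place them, while 18S carries N4-acetylcytidine placed by Nat10. Dnmt2, also called Trdmt1, is a methyltransferase of the tRNA anticodon loop. Bisulfite converts unmethylated cytosine to uracil and spares 5-methylcytosine. The measurement is therefore non-conversion, the percentage of the reads over a cytosine that still show a cytosine. A read can also stay unconverted because the reagent did not reach or fully treat an unmethylated cytosine, for example in RNA that stays folded. Base pairing was not analysed here, and its part in the values was not tested.

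The spans below carry the main patterns. They are drawn from the listed positions, since no rRNA sequence was used here. They run 5′ to 3′ with C or c where the authors' files list a cytosine and n where they list none, so n is any other base or an unlisted cytosine. Capitals mark cytosines with a mean non-conversion over the 4 libraries of 3% or more. Positions count from the start of each reference. The first line is a run of 6 cytosines that all stayed partly unconverted, and the second is the other run of 6 on 18S, which converted almost fully. The next lines are the other main stretches, and the last is the 3′ end of 18S.
18S 184 to 205: nncncnnnCCCCCCnncccnnn
18S 314 to 335: nncncncnccccccnnnncnnc
18S 257 to 291: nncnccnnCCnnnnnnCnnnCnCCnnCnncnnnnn
18S 1744 to 1786: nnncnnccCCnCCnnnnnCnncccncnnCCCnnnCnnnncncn
5.8S 107 to 142: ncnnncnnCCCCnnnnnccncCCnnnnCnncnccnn
18S 1841 to 1865: ccnnnnnnnnnccnncnnnnnnnnc

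Summed coverage of these RNAs, which counts a read once for each cytosine it spans, was 9506772 to 10212958 for 18S and 14377869 to 18954872 for 5.8S per library. The median coverage of a cytosine was 11298 to 13308 reads on 18S and 135353 to 301568 reads on 5.8S. Although the fraction was taken above 200 nt, the short 5.8S gave 40.3 to 47.2% of the summed coverage of a library, and 18S 23.7 to 28.5%. Reads are not separate molecules, so the intervals given here cover counting error only. In 2 respects libraries stood apart before any genotype was compared. Wild type replicate 1 had under 0.5 times the median reads of the other libraries at 19 cytosines of 18S between positions 1547 and 1593, and both replicate 1 libraries were deeper than both replicate 2 libraries over the 3′ part of 5.8S. The pooled comparisons that these touch are also given without the 19 cytosines and without the 5.8S cytosines past position 100, an alternative chosen after the data were seen.

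Nearly all 18S cytosines were converted. Pooled over the 491 cytosines with 10 reads or more in every library, non-conversion was 1.40% and 1.30% in the wild type libraries and 1.27% and 1.32% in the knockout libraries. The 95% Wilson intervals of these shares were narrow, 1.40 to 1.41% for wild type replicate 1. The median cytosine stood at 1.28%, 1.21%, 1.16% and 1.20% in the same order. In each library 83.3 to 88.0% of the cytosines lay under 2%, and 395 of the 491 lay under 2% in all 4. At the other end, 19 had a mean over the libraries of 5% or more, and none had a mean of 10% or more. The only value of 10% or more in any library was that of position 279 in wild type replicate 2, so the other 490 cytosines stayed under 10% in every library.

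**Figure D1:**
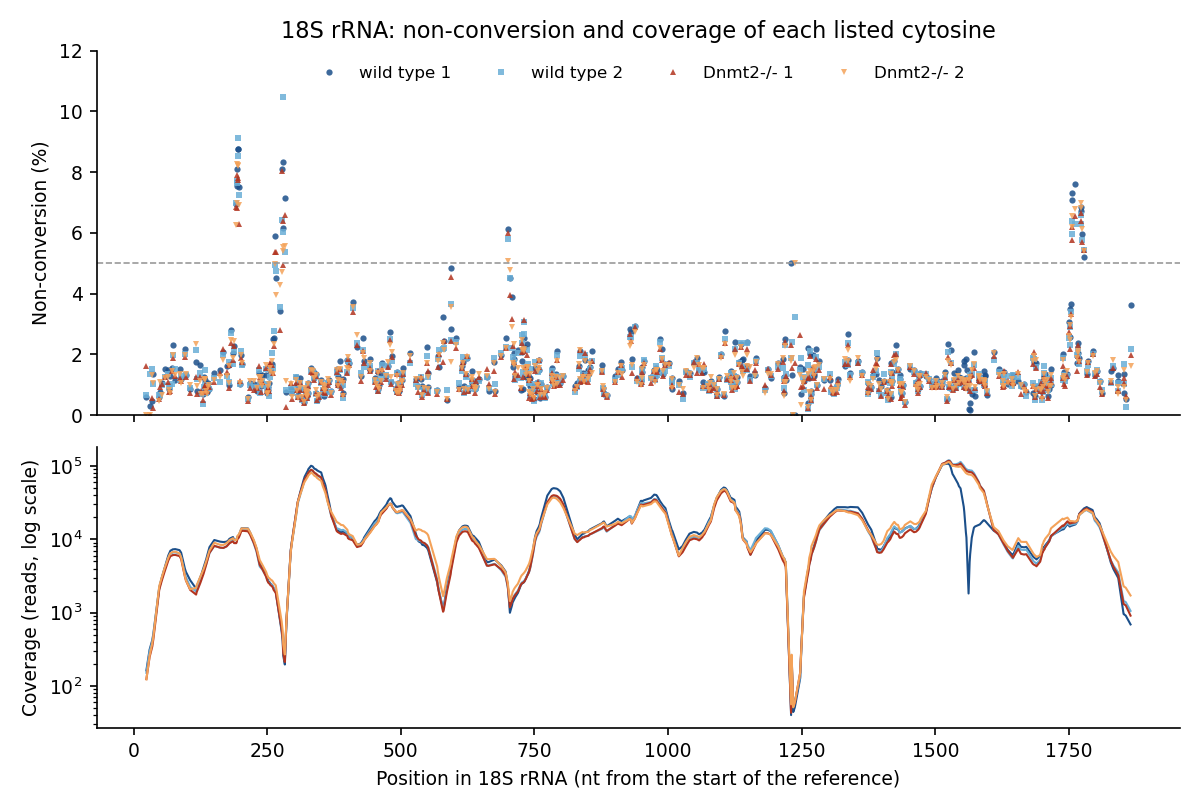
Non-conversion (upper panel, percent) and coverage (lower panel, reads, log scale) of the 491 18S rRNA cytosines with 10 reads or more in every library, against position in 18S, with 1 colour per library; the dashed line is 5%. Most points lie under 2%, and groups of raised points stand at 192 to 197, 265 to 283, 700 to 708 and 1752 to 1778 in all 4 libraries.

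The raised cytosines were grouped in short stretches rather than scattered. With a minimum mean of 3% and gaps of 10 nt or less, a rule set after the values were seen, 27 cytosines fell into 6 groups, 2 of which were single cytosines (positions 410 and 593). These 27 took 2.57 to 2.79% of the 18S coverage and held 11.8 to 12.7% of its non-converted reads. Without them pooled non-conversion was 1.26% and 1.18% in the wild type pair and 1.15% and 1.19% in the knockout pair. The cytosines just under that minimum reached 2.88%, and those just above it began at 3.03%.

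The highest stretch was the run of 6 adjacent cytosines at positions 192 to 197 in the first span above. Its pooled non-conversion was 7.96% and 7.90% in the wild type libraries and 7.22% and 7.49% in the knockout libraries, at 8879 to 11719 reads per cytosine. The knockout libraries lay below both wild type libraries here. Within the run the highest cytosine was position 196, at 8.77% and 9.13% in the wild type pair and 7.80% and 8.20% in the knockout pair. Position 195 stood at 8.78% and 8.53% against 7.74% and 8.24%, and position 193 at 8.12% and 7.65% against 7.90% and 8.27%. Position 194 stood at 7.54% and 7.71% against 6.81% and 6.99%. The groups overlapped at position 193, and at every other position of the run both wild type libraries lay above both knockout libraries. Such a separation was found at 26.3% of the 2461 cytosines of all references, and adjacent cytosines of 1 library share its conversion. The ends of the run were somewhat lower, with position 192 at 6.96% and 6.99% against 6.85% and 6.25%, and position 197 at 7.50% and 7.25% against 6.29% and 6.92%. The fall outside the run was abrupt: position 188, the last cytosine before it, stood at 2.10 to 2.46%, and position 200, the first after it, at 1.01 to 1.12%.

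The second stretch covered 7 cytosines from position 265 to 283, all those listed in that span. Its pooled value was 5.54% and 5.28% in the wild type pair and 5.35% and 4.62% in the knockout pair. Coverage fell steeply across it, from 1901 to 2396 reads at position 265 to 196 to 269 reads at position 283, so its values are less precise than those of the first run. Position 279 had the highest single value on 18S, 10.5% in wild type replicate 2 (49 of 467 reads; Wilson interval 8.03 to 13.6%), against 8.33% in wild type replicate 1 and 6.41% and 5.53% in the knockout. At position 277 the values were 8.12% and 6.42% in the wild type pair and 8.04% and 4.71% in the knockout pair. The groups overlapped at position 277 but not at 279.

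The third long stretch lay near the 3′ end, from position 1752 to 1778. It differed from the first in that converted cytosines sat inside it: 9 of its 13 listed cytosines reached 3%, and the 4 between them at positions 1765 to 1769 had means of 1.77 to 2.24%. On the 5′ side, position 1755 stood at 7.33% and 6.41% in the wild type pair and 6.18% and 6.56% in the knockout pair, and position 1762 at 7.63% and 6.31% against 6.55% and 6.79%. On the 3′ side, position 1772 stood at 6.87% and 6.58% against 6.66% and 6.98%. The groups overlapped at all 3 positions. At 15055 to 26469 reads per cytosine these were the most precisely measured of the raised 18S sites, with a Wilson interval of 6.55 to 7.19% at position 1772 in wild type replicate 1. A smaller stretch of 3 cytosines, positions 700 to 708, had a pooled value of 5.17% and 4.41% in the wild type pair and 4.69% and 4.33% in the knockout pair.

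In fixed windows of 50 nt, the first and the 3′ stretch led, while the windows of the stretches at 265 to 283 and 700 to 708 did not. The window of positions 151 to 200 had a pooled non-conversion of 4.16% ± 0.0459 (SD, n = 2) for wild type and 3.92% ± 0.0779 in the knockout. The window of positions 1751 to 1800 had 3.75% ± 0.159 and 3.68% ± 0.108. The next, positions 401 to 450, had 1.99% ± 0.0484 and 1.94% ± 0.0662. The other 35 of the 38 windows lay between 0.671% and 2.06% in every library.

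5.8S rRNA showed the same kind of pattern in a single place. Its 7 raised cytosines, all at positions 115 to 134, had means over the libraries of 3.65% or more. The other 36, 3 of them inside that span, had means of 1.71% or less, so the 2 sets were separate. The highest was position 118, at 7.13% and 6.05% in the wild type pair and 5.91% and 5.73% in the knockout pair. Position 116 stood at 6.17% and 6.21% against 5.33% and 5.84%. Position 129, across the gap in the middle, stood at 6.25% and 5.06% against 5.49% and 4.70%, position 117 at 5.11% and 4.60% against 4.34% and 4.37%, and position 134 at 4.72% and 4.05% against 3.996% and 3.76%. Both wild type libraries lay above both knockout libraries at positions 116, 117, 118 and 134, and the groups overlapped at position 129. The same separation was found at 22 of the 43 cytosines of 5.8S and at 26.3% of the 2461 of all references. Cytosines of 1 library share its conversion, so the 4 positions are not separate observations. As in the 3′ stretch of 18S, converted cytosines lay between the raised ones: positions 124, 125 and 127 had values of 1.00 to 1.37%. Position 31, the deepest cytosine of 5.8S with 974513 to 1177753 reads, was almost fully converted, at 0.788 to 0.829%.

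**Figure D2:**
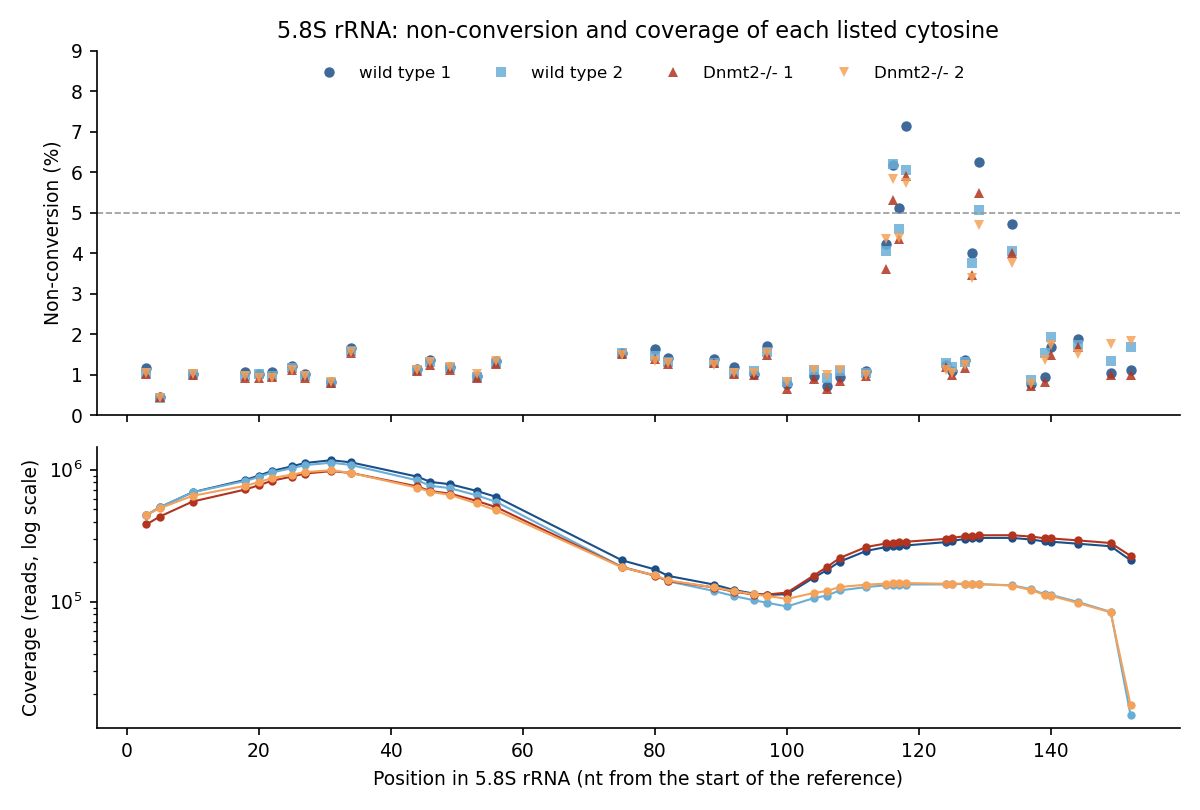
Non-conversion (upper panel, percent; dashed line at 5%) and coverage (lower panel, reads, log scale) of the 43 cytosines of 5.8S rRNA against position, with 1 colour per library. The 7 raised cytosines lie between 115 and 134, and past position 100 both replicate 1 libraries run above both replicate 2 libraries in coverage.

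The pooled value of 5.8S was higher in both replicate 1 libraries, which also had more of their 5.8S coverage in its 3′ part. It was 1.58% and 1.33% in wild type replicates 1 and 2 and 1.48% and 1.32% in knockout replicates 1 and 2. Positions past 100, which include the raised stretch, took 27.4% and 32.0% of the 5.8S coverage in the replicate 1 libraries and 15.2% and 16.7% in the replicate 2 libraries. Within each replicate number, however, the knockout library had the larger of these shares and the lower pooled value. The part of the read distribution in the pooled value was not tested. Without the 7 raised cytosines the pooled value was 1.15% and 1.10% in the wild type pair and 1.05% and 1.09% in the knockout pair. At the 20 cytosines past position 100, wild type replicate 1 had 1.43 to 14.9 times the reads of wild type replicate 2 (median 2.16), and knockout replicate 1 had 1.35 to 13.5 times those of knockout replicate 2 (median 2.26). Between genotypes of the same replicate number these ratios were 1.04 to 1.08 (replicate 1) and 0.981 to 1.19 (replicate 2). At the last cytosine, position 152, wild type had 205663 and 13784 reads, and the knockout 221797 and 16424. Up to position 100 the replicates differed by at most 1.24 times. The replicate number thus went with the coverage of the 3′ part of 5.8S in both genotypes, and the labels do not say what a number shares.

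To ask whether loss of Dnmt2 changes rRNA methylation, non-conversion was compared between genotypes at each cytosine with a mean of 5% or more. Of the 22 such cytosines here, 19 on 18S and 3 on 5.8S, 0 passed edgeR's quasi-likelihood test after Benjamini-Hochberg correction over all 162 cytosines tested in these libraries, where 1 passed (0.617%). Of the 22, 1 had an unadjusted p under 0.05. That was position 279 of 18S, which stood at 9.41% ± 1.53 (SD, n = 2) for wild type and 5.97% ± 0.623 in the knockout, a difference of -3.45 percentage points and a log2 odds ratio of -0.73 (edgeR adjusted p = 0.254). Of the other 21, the 4 with the smallest p were positions 196, 197 and 194 of 18S and 118 of 5.8S, with differences of -0.95, -0.77, -0.72 and -0.77 percentage points and an edgeR adjusted p of 0.693 each. The difference at position 118 of 5.8S was -0.228 without wild type replicate 1 and -1.31 without wild type replicate 2, and that at position 197 of 18S was -0.456 without knockout replicate 1. A missed threshold does not show that the levels are equal.

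Most of the 22 were lower in the knockout, 17 of 22, beside 99 of 162 over all references, and the median log2 odds ratio was -0.12, beside -0.09 over all. This direction was weaker without wild type replicate 1, where 13 of the 22 were lower, beside 80 of 157 over all references. The median log2 odds ratio was then -0.03, beside -0.003 over all. When the reads of each genotype were summed, which leaves out the spread between libraries, Fisher's exact test called 5 of the 22, all lower in the knockout, against 7 of 162 over all references (4.32%).

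**Figure D3:**
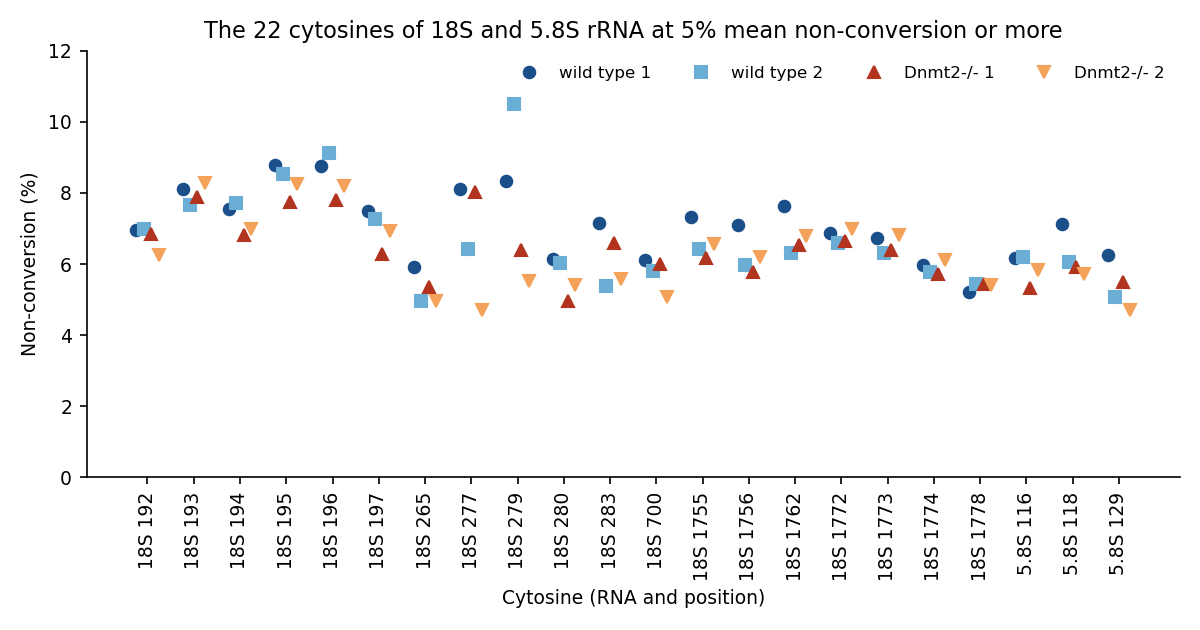
Non-conversion (percent) in each of the 4 libraries at the 22 cytosines of 18S and 5.8S rRNA with a mean of 5% or more, labelled by RNA and position. Wild type and knockout points overlap or lie close at most cytosines, and the widest gap between the groups is at 18S position 279.

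Over the whole of 18S, pooled non-conversion was 1.35% ± 0.0705 (SD, n = 2) for wild type and 1.29% ± 0.0324 in the knockout. The difference of -0.0613 percentage points was smaller than the spread between the wild type libraries (exact permutation test, two-sided p = 0.667, where 0.333 is the smallest that 2 against 2 libraries allow). It was -0.0525 without the 19 cytosines where wild type replicate 1 lost coverage and -0.0115 without wild type replicate 1 altogether. Taken over cytosines rather than reads, the difference was -0.0843 for the mean and -0.0669 for the median, with both knockout libraries below both wild type libraries (exact permutation test, two-sided p = 0.333 for each). For 5.8S the values were 1.46% ± 0.178 and 1.40% ± 0.111, a difference of -0.0574 (exact permutation test, two-sided p = 0.667), which turned to 0.0687 without wild type replicate 1 and to 0.0210 without knockout replicate 2. It was larger over cytosines, -0.138 for the mean and -0.0996 for the median, and -0.0517 over reads up to position 100, again with both knockout libraries below both wild type libraries (exact permutation test, two-sided p = 0.333 for each of the 3). Adjusted over the 5 comparisons of pooled values made here, both p were 0.667.

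Counted cytosine by cytosine, both knockout libraries lay below both wild type libraries at 150 of 491 on 18S and 22 of 43 on 5.8S, where the share over all 2461 cytosines of these libraries was 26.3%. They lay above both at 34 and 0, where the share over all was 10.9%. Cytosines of 1 library share its conversion, so these counts are not separate observations. Taken within a replicate number, knockout replicate 1 was below wild type replicate 1 at 43 of 43 cytosines of 5.8S (median difference -0.113 percentage points) and at 76.6% of those of 18S. Knockout replicate 2 was below wild type replicate 2 at 30 of 43 (median -0.0331) and at 52.7%. Over all references the shares were 66.4% and 51.2%. The background of wild type replicate 1, its pooled non-conversion over the cytosines of all references at 10% or less, was 1.55%, the highest of the 4, with 1.39% in wild type replicate 2 and 1.43% and 1.38% in the knockout. The part of this background in the counts was not tested.

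Within each genotype, cytosines were also called methylated where an exact binomial test against the background of each library, combined over both libraries, passed after adjustment and non-conversion was 10% or more in both. On 18S and 5.8S, 0 of 534 were called for wild type, against 19 of 2461 over all references (0.772%), and 0 of 534 in the knockout, against 17 of 2469 (0.689%). The binomial test alone is sensitive at this depth. At an unadjusted p under 0.05 it passed 147 and 144 of the 534. After adjustment it passed 138 and 136, most at levels of a few percent, beside 721 of 2461 and 739 of 2469 over all references. With a minimum of 5% in both libraries, 21 passed in wild type and 18 in Dnmt2-/- cells, beside 124 of 2461 and 114 of 2469 over all references. All of the 21 and the 18 lay in the stretches described above. Those stretches were set by a lower minimum on the mean of these same values, so this overlap follows largely from their definition. As a scale, the highest cytosines of 28S rRNA in the same libraries, positions 3438 and 4099, stood at 95.7 to 97.5%, whereas the highest mean on 18S was 8.47% and on 5.8S 6.21%.

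18S was more fully converted than 28S in each library. Its pooled non-conversion was 1.32% ± 0.0571 (SD, n = 4) against 1.61% ± 0.0508, a difference of -0.284 percentage points that was negative in 4 of 4 libraries (exact sign-flip permutation test over libraries, two-sided, with p = 0.125, which is also the lowest value 4 libraries allow; 0.208 adjusted over the 5 comparisons). Without cytosines of 3% or more on either RNA it was -0.231, and without the 18S cytosines of departing coverage -0.263. Cytosines at a mean of 5% or more made up 3.87% of those on 18S, 6.98% on 5.8S and 7.32% on 28S. 5.8S was 0.104 percentage points above 18S in pooled value, in 4 of 4 libraries (exact sign-flip permutation p = 0.125), but the difference was -0.0968 without cytosines of 3% or more and -0.257 without the cytosines of departing coverage, which leaves out 5.8S past position 100. Both ways of leaving cytosines out remove the 7 raised cytosines of 5.8S, the first by the very measure compared. These 2 values are therefore a description only. With medians over cytosines and none left out, the difference was -0.0311. The order of the 2 RNAs thus depended on the summary and on the cytosines kept.

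Cytosines with a listed neighbour were slightly less converted than isolated ones in each library, a difference that 4 libraries cannot bring past the threshold. On 18S, 264 cytosines had a listed neighbour and 227 did not. Their pooled non-conversion was 1.36% ± 0.068 (SD, n = 4) and 1.29% ± 0.0466, a difference of 0.0733 percentage points in the same direction in 4 of 4 libraries (two-sided p = 0.125 by the same exact sign-flip permutation). It was 0.116 without the cytosines of departing coverage, 0.0261 with medians over cytosines and 0.233 with every cytosine weighted equally. Much of it lay in the raised stretches, where 70.4% of the 27 cytosines had a neighbour, beside 52.8% of the others. The difference was -0.0864 without those 27, which were left out by the very measure compared, so this value is a description only. On 5.8S the 11 cytosines with a neighbour stood at 3.30% ± 0.211 (SD, n = 4) and the 32 isolated ones at 1.13% ± 0.0469. Of these 11, 6 were raised cytosines of the stretch at positions 115 to 134. Without the raised cytosines, again left out by the measure compared, the remaining 5 stood at 1.28% ± 0.123 and 31 isolated ones at 1.09% ± 0.0383.

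Runs of the same length differed widely. Of the 10 runs of 4 or more cytosines on 18S, the run at 192 to 197 and that at 1750 to 1753 (3.20%, 2.80%, 2.80% and 2.83%) were above the others. The second run of 6, at positions 322 to 327, was the lowest of the 10, at 0.753% and 0.732% in the wild type pair and 0.723% and 0.758% in the knockout pair. The 2 runs of equal length thus stood at means of 7.64% and 0.741%, without overlap between any of their libraries. On 5.8S the only run of 4, positions 115 to 118, stood at 5.67% and 5.23% in the wild type pair and 4.80% and 5.07% in the knockout pair.

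**Figure D4:**
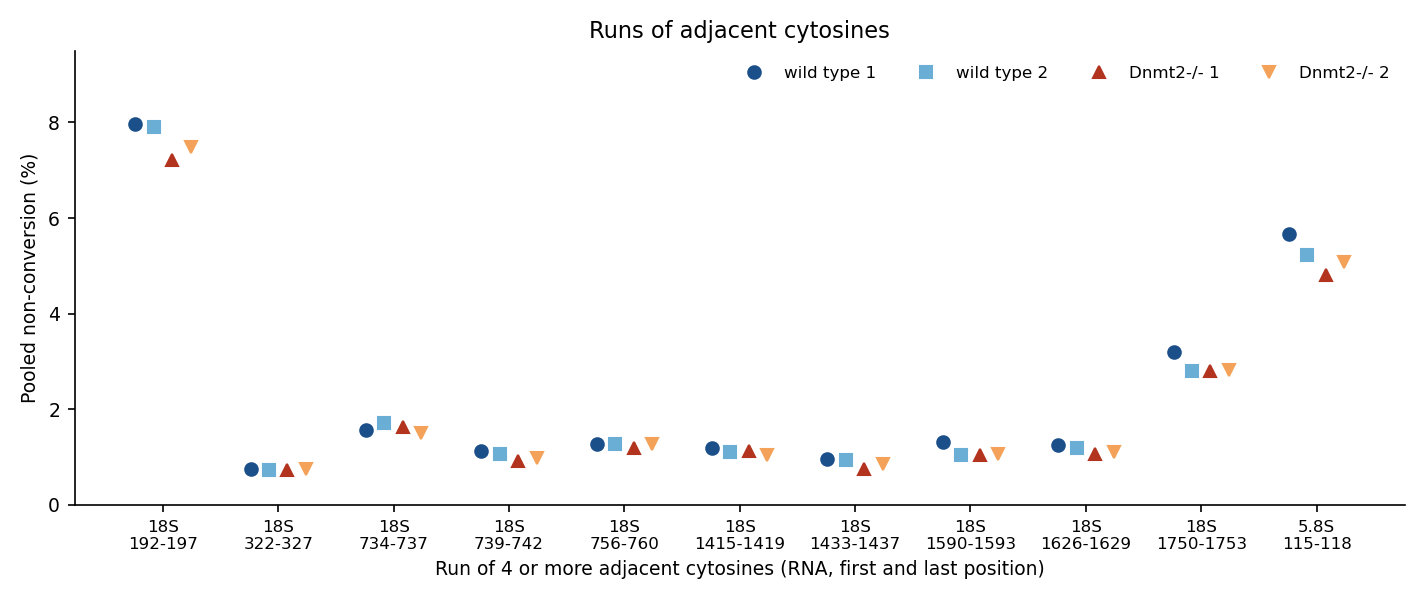
Pooled non-conversion (percent) of each run of 4 or more adjacent listed cytosines, with 1 point per library. The 2 runs of 6 on 18S, 192 to 197 and 322 to 327, lie at the top and the bottom.

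The acetylated site near the 3′ end of 18S was located by the spacing of the last listed cytosines, shown in the last span above. Helix 45 of 18S holds a cytosine pair of which one is known to carry N4-acetylcytidine. The pair fell at positions 1841 and 1842. Position 1841 stood at 1.34% and 1.05% in the wild type pair and 0.804% and 0.940% in the knockout pair, and position 1842 at 1.11% and 0.789% against 0.832% and 0.714%, over 2970 to 4999 reads. Their means lay below that of the median 18S cytosine: 34.3% of the 18S cytosines had a lower mean than position 1841 and 17.9% a lower mean than position 1842. In wild type replicate 1, position 1841 was above the median cytosine of that library (1.28%).

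Coverage along 18S was uneven in a similar way in all libraries, apart from the place where wild type replicate 1 stood apart and, less so, the 3′ end. From position 1851 on, the mean coverage of 4 cytosines was 877 and 1334 reads for wild type and 1196 and 2115 in the knockout. The deepest cytosine was position 1525, where wild type had 107218 and 120432 reads and the knockout 118199 and 113806. The first listed cytosine, position 17, had 9, 10, 9 and 10 reads, none of them unconverted. Away from the ends the shallowest was position 1230, at 40, 53, 43 and 56 reads, with non-conversion of 5%, 1.89%, 2.33% and 1.79%. It opened a trough of 7 cytosines up to position 1252 with 40 to 930 reads, in which pooled non-conversion was 1.35% and 1.60% in the wild type pair and 1.22% and 1.21% in the knockout pair. A second trough, of 6 cytosines at positions 273 to 286 with 196 to 1165 reads, lay inside and just past the second raised stretch, and its pooled value was 4.73% and 4.84% against 4.09% and 4.10%. In pooled value, low coverage and raised non-conversion thus met at this trough and not at the deeper one. Pooling weighs the deeper cytosines of a trough most. Position 1230 itself was above the median cytosine in each library, on few reads. The raised cytosines at position 593 (3301 to 4585 reads) and positions 700 to 708 (996 to 2565 reads) also had fewer reads than the median cytosine. Of the 6 raised groups, 5 lay below the median 18S coverage of each library at every raised cytosine, those at 192 to 197 and 410 by the least (0.734 to 0.951 times the median for 192 to 197), and 1, positions 1752 to 1778, lay above it (1.21 to 2.25 times). Across the 491 cytosines of a library, which share its depth and conversion, Spearman's rho of non-conversion with coverage was -0.064 to -0.156.

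The loss of coverage in wild type replicate 1 was sharp and local. At position 1562 this library had 1826 reads, whereas wild type replicate 2 had 87972 and the knockout libraries 83521 and 76886, which is 45.7 times the reads of wild type replicate 1 when the median of the 3 is taken. Non-conversion there was 0.219% in wild type replicate 1 and 1.19%, 1.17% and 1.17% in the others. At position 1565 it was 0.159% against 1.33%, 1.30% and 1.26%, and at position 1557, on the 5′ side, 1.84% against 1.13%, 1.15% and 1.14%. Just before the minimum, wild type replicate 1 was thus above the other libraries, and at the minimum and just past it below them. By position 1609 coverage was again 13160 reads, beside 13416 to 14696 in the other libraries. No other library fell under 0.5 times the median of the other 3 at any cytosine of 18S.

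**Figure D5:**
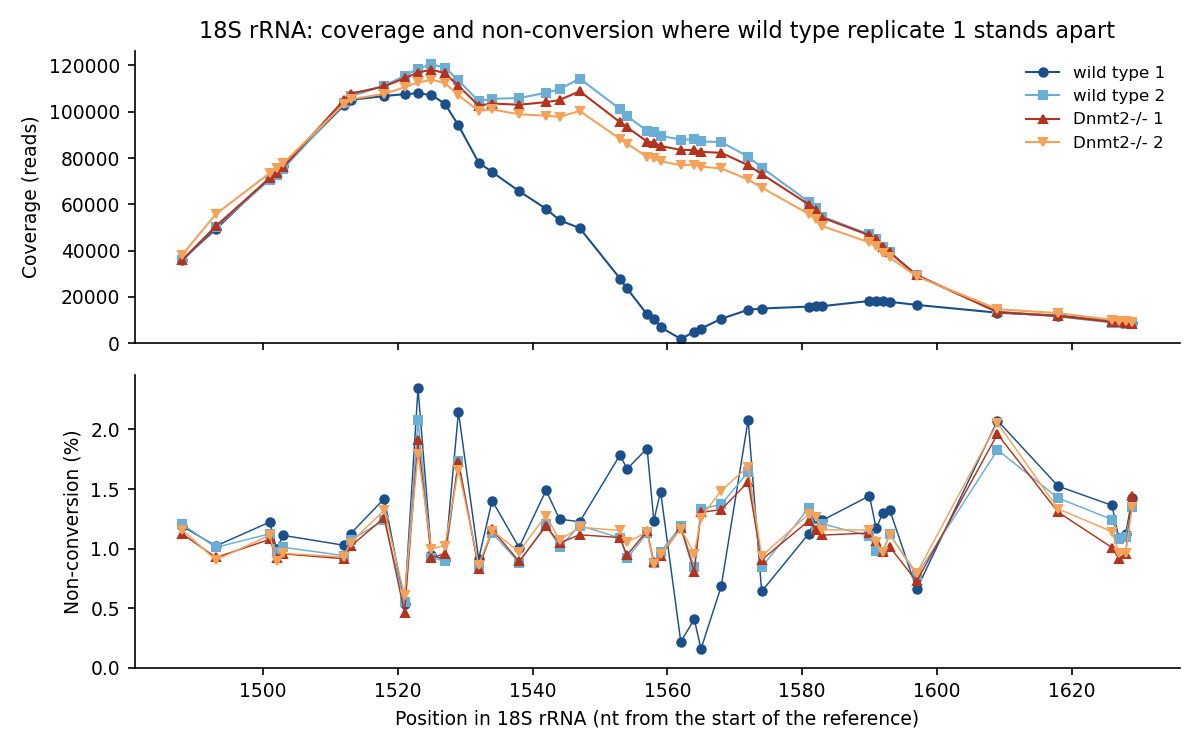
Coverage (upper panel, reads) and non-conversion (lower panel, percent) of 18S rRNA cytosines around position 1562, with 1 line per library. Wild type replicate 1 drops to 1826 reads while the others have 76886 or more, and its non-conversion leaves theirs on both sides of the minimum.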

How the data were processed

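RNA bisulfite sequencing libraries of the long RNA fraction without rRNA depletion were used (2 wild type, 2 Dnmt2-/-). Other fractions were not used here. Per the file headers, the deposited files give for each cytosine the coverage, an unnormalized read count, and the unconversion ratio, a fraction that the authors computed. The submitters' processing notes name BSMAP and the build mm9; their versions, and any filters, are not given in the sources read. Coverage went down to 3 reads. Non-converted reads were taken as the product of both, which departed from a whole number by at most 4.75e-08 (tolerance 0.01).

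Cytosines with 10 or more reads in each of the 4 libraries and a mean non-conversion of at least 5% were tested with edgeR 4.0.16 (R 4.3.3), with library terms and a genotype-by-conversion interaction, over all 5 references, with Benjamini-Hochberg adjustment and a threshold of 0.05. The script was tested on simulated data. Pooled values were compared with exact permutation tests (Python 3.11.15, scipy 1.17.1). A library's background pools the cytosines at 10% or less. Named on 18S were the 10 cytosines highest in wild type, the 5 highest in the knockout and the 5 of smallest p over both RNAs, and on 5.8S the 5 highest, with the lowest and highest coverage. The window, run, neighbouring, terminal and departing positions given beside these, and the helix 45 pair, are context; stretches and departing positions were chosen after their values were seen. The cytosines and rules were chosen with earlier results of these data known. Alternatives were other minima of coverage and level, Fisher's exact test, a replicate block, other summaries and leaving out each library.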

Additional observations from a re-analysis of the deposited data

How the results depend on the processing

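The difference of 18S between genotypes and that between 18S and 28S kept their direction under every alternative run. Among the 22 tested cytosines, the 5 of smallest p kept theirs when each library was left out in turn. The other alternatives compare the same percentages at these 5, so their direction could not change there. The 5 were also picked by their p in these same data. Leaving out 1 library in turn, the 18S difference was -0.111 to -0.0115 and the 5.8S difference -0.184 to 0.0687 (0.0210 without knockout replicate 2). The absence of calls in wild type depended on both libraries at position 279 of 18S. It stood at 10.5% in wild type replicate 2, past the 10% minimum of a call, and at 8.33% in wild type replicate 1. With a minimum of 5% the calls were 21 in wild type and 18 in the knockout, beside 124 of 2461 and 114 of 2469 over all references. With reads summed by genotype, Fisher's exact test called 5 of the 22 cytosines, beside 7 of 162 over all references. With edgeR the counts were 0 of the 22 and 1 of the 162. Positions 196 and 197 of 18S and 118 of 5.8S were among the 5 that passed Fisher's test. The difference of 5.8S from 18S turned to -0.0311 with medians over cytosines to -0.0968 without cytosines of 3% or more and to -0.257 without cytosines of departing coverage, and that of adjacent from isolated cytosines to -0.0864 without those of 3% or more, a choice that uses the compared measure itself; both ways of leaving cytosines out were chosen after the data were seen. The cause was not tested, beyond the stretches left out.

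With the replicate number as a block, 0 of the 22 cytosines passed (edgeR, smallest adjusted p = 0.186), and the pooled differences of -0.0613 (18S) and -0.0574 (5.8S) were unchanged by construction. Deviations of same-numbered libraries correlated at Pearson's r = 0.311 over the cytosines of 18S and 0.731 over those of 5.8S (Spearman's rho 0.0605 and 0.646), a hint from 2 pairs and not from the labels. Depth limited position 279 of 18S, at 408 to 561 reads.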

Other observations

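The distance between libraries did not follow genotype. Over the cytosines of 18S and 5.8S with any non-converted read, the chi-square of the read counts per cytosine was 4.67 between the wild type libraries and 3.80 between the knockout libraries, where counting error alone gives about 1. Between genotypes it was 1.76 (both replicate 2), 3.37 (wild type replicate 2 and knockout replicate 1), 6.75 (both replicate 1) and 6.96 (wild type replicate 1 and knockout replicate 2). Without the cytosines of departing coverage these fell to 2.04 and 1.43 within the genotypes and to 1.33, 1.25, 3.24 and 3.06 between them, so the closest pair changed, while each pair with wild type replicate 1 stayed above each pair without it. Chi-square weighs deep cytosines and overall level, and the order by correlation was another: Pearson's r over cytosines was highest for both replicate 1 libraries, 0.970 on 18S and 0.999 on 5.8S. Spearman's rho was highest for the same pair on 5.8S (0.986). On 18S it was highest for both replicate 2 libraries, at 0.936, with 0.903 for both replicate 1 libraries. No pair had identical values at more than 1 of the 535 cytosines.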
